A study of Homo sapiens with 15 samples.

Results

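The neurotrophin receptor gene NTRK2 and the neurotensin gene NTS were followed together with 4 genes of related ligands and receptors, BDNF, NGFR, NTSR1 and SORT1, in RNA-seq of HCC95 cells, an established line of human lung squamous cell carcinoma (LUSC). NTRK2 and NTS were chosen by their measured levels, which were far lower in 3 of the knockdowns than in the control, and the other 4 genes were added as their ligands and receptors. The 6 genes were found by symbol among 61544 genes of the deposited count table, and all 6 passed the filter on low counts, NTS only through its counts in siNC1 and siKLF5b. Cells were transfected with a control siRNA (siNC1) or with 1 siRNA against a squamous transcription factor, TP63 (siTP63b), SOX2 (siSOX2b), KLF5 (siKLF5b) or GRHL2 (siGRHL2a), with 3 libraries in each of the 5 groups. Each factor is thus represented by a single siRNA sequence in 1 cell line, and the labels give neither the time after transfection nor whether replicates were separate cultures, so p-values measure only the spread between these libraries.

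Neurotrophins are secreted growth factors that act through 2 kinds of receptor. TrkB, the product of NTRK2, is a receptor tyrosine kinase whose main ligand is brain-derived neurotrophic factor (BDNF), and signals to the MAP kinase, phosphoinositide 3-kinase and phospholipase C pathways. NGFR encodes the p75 receptor, a member of the tumour necrosis factor receptor family that binds all mature neurotrophins and, together with sortilin (SORT1), their precursors. Neurotensin is a short peptide hormone cut from a precursor. NTSR1 is its high-affinity receptor and couples to Gq proteins, and sortilin also binds neurotensin and carries cargo from the Golgi to the lysosome. NGFR is known as a marker of basal cells in squamous epithelia and airways.

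The libraries held between 15655495 and 34229063 counts. The column names of the table part them into 2 sets, 9 libraries of siTP63b, siSOX2b and siGRHL2a, and 6 libraries of siNC1 and siKLF5b. The sets also differ in the counts themselves, since 66.1% to 69.0% of the counts between 20 and 500 were even numbers in the 9 libraries and 49.7% to 50.7% in the 6. A difference of siTP63b, siSOX2b or siGRHL2a from siNC1 therefore cannot be told apart from the column set, and the comparisons that avoid it are siKLF5b against siNC1 and the 3 other knockdowns against each other. Tests across the sets, where given, are named as such. KLF5 was at 72.5 CPM (counts scaled to the library size) in siKLF5b and 113 CPM in siNC1. Within the set of 9, TP63 was lowest in siTP63b (363 CPM against 690 and 831), SOX2 in siSOX2b (8.97 CPM against 29.5 and 20.2), and GRHL2 in siGRHL2a (91.3 CPM against 117 and 100). The squamous markers TP63, KRT5, KRT6A, KRT17, DSG3, EPCAM and CDH1 summed to between 6230 and 12188 CPM in every library.

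NTRK2 and NTS carry the largest differences described here, and the 250 bases before a start site of each are shown for that reason, from RefSeq (GRCh38.p14). Capitals mark letters that match a searched motif on either strand. The NTS window is chr12:85874045-85874294 on the plus strand and ends just before the start of the gene. The NTRK2 window is chr9:84669783-84670032, also on the plus strand, before 1 of 4 start sites that the table lists for this gene. That site lies 304 bases after the start of the reference (MANE Select) transcript, at base 84669729. The whole NTRK2 window thus lies downstream of the reference start, unlike the NTS window.
NTS: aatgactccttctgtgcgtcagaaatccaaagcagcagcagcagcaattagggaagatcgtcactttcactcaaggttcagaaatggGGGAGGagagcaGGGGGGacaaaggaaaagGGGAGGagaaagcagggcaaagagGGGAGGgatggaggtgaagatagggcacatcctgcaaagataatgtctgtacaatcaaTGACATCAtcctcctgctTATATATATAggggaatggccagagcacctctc
NTRK2: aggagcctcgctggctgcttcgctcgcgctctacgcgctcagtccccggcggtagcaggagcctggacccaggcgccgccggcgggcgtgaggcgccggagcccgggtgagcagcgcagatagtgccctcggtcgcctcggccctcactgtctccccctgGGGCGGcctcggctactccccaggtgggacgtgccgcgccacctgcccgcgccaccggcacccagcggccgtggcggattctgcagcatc
The letters GGGNGG, a core of KLF and SP sites, matched 4 times in the NTS window and once in the NTRK2 window, and 71.6% of all 35116 promoter windows of this length hold them. The NTS window also has TGACNTCA, the letters of a cyclic AMP response element, 51 bases before the start (in 6.87% of windows), and 3 overlapping matches of a TATA box, written TATANA, that begin 33, 31 and 29 bases before it (17.7%). Neither window holds CATTGT, a SOX core (9.29%), AACNNGTT, a GRHL core (3%), TGANTCA, an AP-1 site (6.57%), or a p53 family half-site (5.57%). Before another listed start of NTRK2, at base 84669306 of chromosome 9, the window does hold the GRHL core, at -140 from that start, and 6 matches of GGGNGG. These matches describe the letters and say nothing of binding. The NTS window is 49.2% G or C and the NTRK2 window 75.2%.

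NTRK2 (ENSG00000148053.18) spans 84668375 to 85095751 on the plus strand of chromosome 9 of hg38. In siNC1 it had 141, 132 and 133 CPM in the 3 libraries, and in siKLF5b 211, 199 and 193 CPM. In the set of 9 it had 4.5, 4.69 and 4.13 CPM in siTP63b, 5.2, 3.46 and 3.1 CPM in siSOX2b, and 7.89, 5.31 and 5.57 CPM in siGRHL2a. All 9 of these libraries thus lay below all 6 others, with 3.1 to 7.89 CPM against 132 to 211 CPM. The mean over the 6 libraries was 34.5 times the mean over the 9. The group means were 136 ± 4.96 CPM in siNC1, 201 ± 9.36 in siKLF5b, 4.44 ± 0.285 in siTP63b, 3.92 ± 1.12 in siSOX2b and 6.25 ± 1.42 in siGRHL2a (SD, n = 3 each). The log2 fold changes (log2FC) against siNC1 were -4.93 in siTP63b, -5.09 in siSOX2b and -4.43 in siGRHL2a, and among the 25108 genes tested only 23, 27 and 33 had a lower one. These values chose the gene and follow the column set exactly, so they are given with no test. In bulk RNA, fewer cells that express a gene and less RNA per cell cannot be told apart.

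Within the sets, NTRK2 differed more modestly. It was higher in siKLF5b than in siNC1, with the libraries of the 2 groups not overlapping, by a log2FC of 0.57 (standard error 0.0791, adjusted p = 1.8e-06 by the quasi-likelihood test of edgeR, with Benjamini-Hochberg correction over all genes tested). This contrast shares the siNC1 libraries with the differences that chose NTRK2. Among the other knockdowns, NTRK2 was higher in siGRHL2a than in siSOX2b (log2FC 0.65, standard error 0.138, adjusted p = 0.000645 in edgeR), although replicate 1 of siSOX2b, at 5.2 CPM, came close to the lowest siGRHL2a library, at 5.31 CPM. It was also higher in siGRHL2a than in siTP63b (log2FC 0.50, standard error 0.136, adjusted p = 0.00595). Replicate 1 of siGRHL2a, at 7.89 CPM, was the highest library of that group, and without it the log2FC against siTP63b was 0.29 with an adjusted p of 0.118. siSOX2b and siTP63b overlapped (log2FC -0.16, standard error 0.15, adjusted p = 0.47), but without replicate 1 of siSOX2b the log2FC was -0.42 with an adjusted p of 0.0374. None of these 4 differences reached a log2FC of 0.75, the size that the study's methods ask of a differentially expressed gene together with an adjusted p under 0.05. Without replicate 1 of siSOX2b, that between siGRHL2a and siSOX2b did, at 0.91, and without replicate 2 of siGRHL2a it was 0.76.

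**Figure D1:**
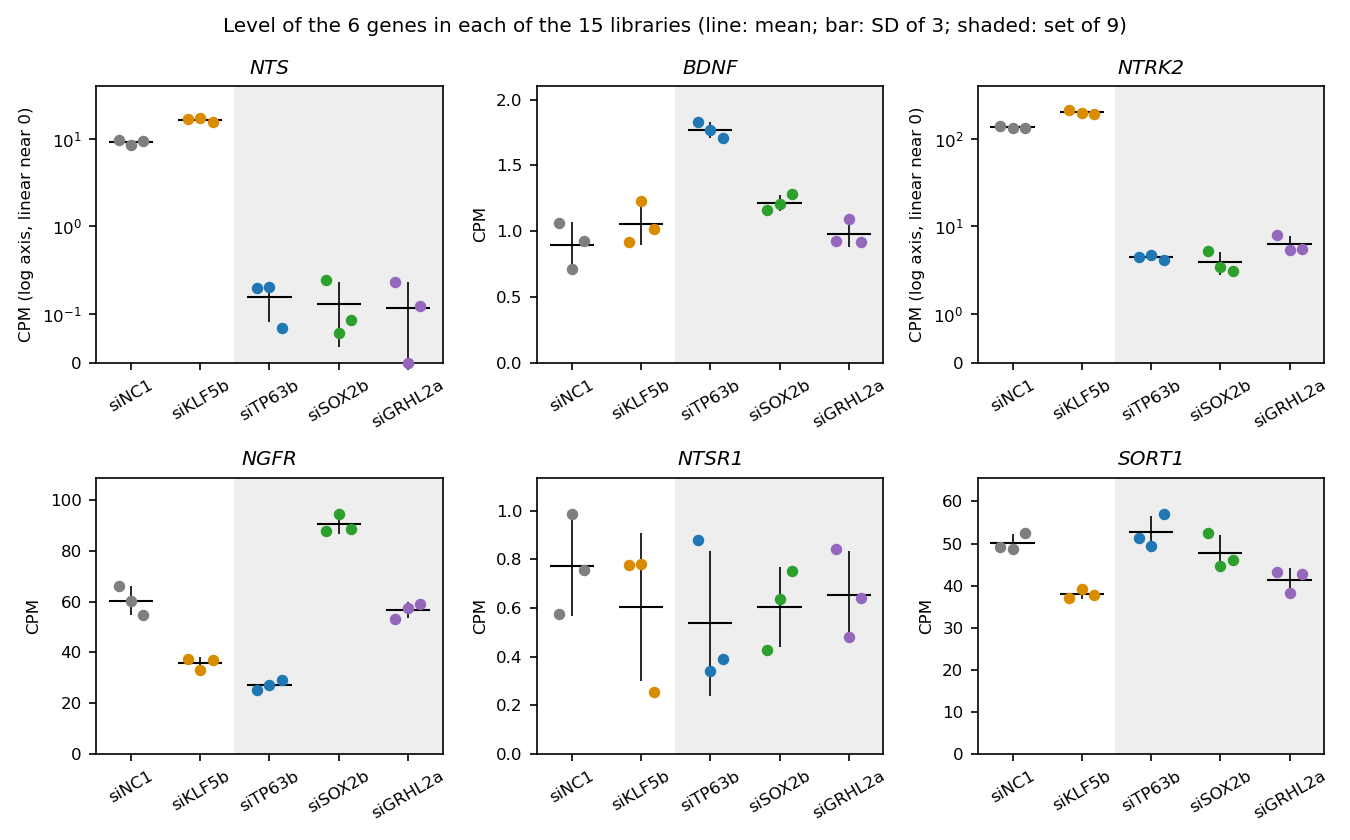
CPM of the 6 genes in each library (points), with the mean (line) and SD (bar) of the 3 libraries of a group; the shaded groups are the set of 9 libraries, and the axes of NTS and NTRK2 are logarithmic except near 0. NTRK2 and NTS lie at 3.1 to 7.89 CPM and 0 to 0.245 CPM in the shaded libraries, below every unshaded one, while the shaded and unshaded libraries overlap for the other 4 genes.

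NTS (ENSG00000133636.11) spans 85874295 to 85882992 on the plus strand of chromosome 12. It had 9.57, 8.56 and 9.52 CPM in siNC1, from 216, 156 and 227 counts. In siKLF5b it had 16.7, 17.1 and 15.5 CPM, from 365, 415 and 243 counts. The siKLF5b libraries all lay above those of siNC1, with means of 16.4 ± 0.84 and 9.22 ± 0.57 CPM (SD, n = 3 each). The log2FC was 0.83 (standard error 0.163, adjusted p = 0.000245 in edgeR), past both thresholds, as for 1.89% of all genes tested in this direction. Here too the siNC1 libraries are those on which NTS was chosen.

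In the set of 9 libraries NTS had at most 8 counts in a library. Its counts were 6, 6 and 2 in siTP63b (0.196, 0.204 and 0.0712 CPM), 8, 2 and 2 in siSOX2b (0.245, 0.0606 and 0.0885 CPM) and 8, 0 and 4 in siGRHL2a (0.232, 0 and 0.122 CPM). Summed over a group these are 14 counts in siTP63b, with an exact 95% Poisson interval of 7.65 to 23.5, and 12 in each of siSOX2b and siGRHL2a, with an interval of 6.2 to 21. The intervals cover counting error only and assume that counts arise singly. NTS had even counts in 9 of 9 of these libraries, which puts that in doubt, so the intervals may be too narrow. The log2FCs against siNC1 were -5.82, -6.04 and -6.22 in siTP63b, siSOX2b and siGRHL2a, with 19, 16 and 10 genes at a lower value, and are given with no test for the same reason as those of NTRK2. The mean CPM over the 6 libraries was 94.6 times that over the 9. At this depth no difference in NTS was detectable within the set of 9: the log2FCs were -0.22 (standard error 0.61) for siSOX2b against siTP63b, -0.40 (0.608) for siGRHL2a against siTP63b and -0.18 (0.63) for siGRHL2a against siSOX2b. Each of the 3 changed sign when 1 library was left out, and a fit of only the 6 libraries compared gave none of them, since NTS then fell to the filter on low counts.

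Both genes also carry the even counts of their set. The counts of NTS were even in 9 of 9 libraries of the set of 9 and in 2 of 6 others, and those of NTRK2 in 9 of 9 and 3 of 6. SORT1 had even counts in 9 of 9 and 2 of 6 libraries, NGFR in 6 of 9 and 3 of 6, BDNF in 8 of 9 and 5 of 6, and NTSR1 in 3 of 9 and 3 of 6. With the counts of the 9 libraries halved, the log2FCs against siNC1 were between -4.44 and -5.08 for NTRK2 and between -5.80 and -6.19 for NTS. Scaling to the library size removes a factor shared by all genes of a library, so this setting could hardly move them. The part of the counting in these differences was not tested.

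Over all genes tested, the 9 libraries lay below the other 6 for 14.2% and above them for 14.5%. NTRK2 and NTS are thus among 3567 genes below in all 9 libraries, and the size of the difference places them near the end of the ranking. Both were chosen on these differences, so their place restates the choice. BDNF, NGFR, NTSR1 and SORT1 overlapped between the sets. Markers of neurons and neuroendocrine cells summed to 6.04 to 9.26 CPM in the 6 libraries and 14.9 to 21.5 CPM in the 9, mostly from TUBB3, a tubulin, while NEUROD1 had no count in any library and INSM1 at most 2. Glial markers summed to at most 2.29 CPM in any library, with S100B at 0 throughout. Endothelial markers summed to 10.8 to 15 CPM in the 6 libraries and 3.15 to 7.54 CPM in the 9, mostly from VWF, with PECAM1 at most at 6 counts and CDH5 at 14. Fibroblast markers summed to at most 9.29 CPM, and leukocyte markers to 21.5 to 39.8 CPM, mostly from CD68. Their part in the levels of NTRK2 and NTS was not tested.

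BDNF (ENSG00000176697.20), the gene of the main TrkB ligand, spans 27654893 to 27722058 on the minus strand of chromosome 11. It was counted rarely in every group. The libraries had 24, 13 and 22 counts in siNC1 (1.06, 0.713 and 0.923 CPM), and 20, 30 and 16 in siKLF5b (0.915, 1.23 and 1.02 CPM). They had 56, 52 and 48 in siTP63b (1.83, 1.77 and 1.71 CPM), 38, 40 and 29 in siSOX2b (1.16, 1.21 and 1.28 CPM), and 32, 36 and 30 in siGRHL2a (0.928, 1.09 and 0.918 CPM). The 3 siTP63b libraries were the highest of all 15. BDNF was lower in siGRHL2a than in siTP63b by a log2FC of -0.85 (standard error 0.248, adjusted p = 0.00941 in edgeR), past both thresholds as for 2.18% of all genes in this direction. The difference between siSOX2b and siTP63b, -0.54, missed the threshold (standard error 0.246, adjusted p = 0.0952), as did that between siGRHL2a and siSOX2b, -0.31 (standard error 0.257, adjusted p = 0.416). In siKLF5b against siNC1 the log2FC was 0.22 (standard error 0.292, adjusted p = 0.654). BDNF was higher in siTP63b than in siNC1, which crosses the sets (log2FC 0.96, standard error 0.266, adjusted p = 0.00286), while siSOX2b and siGRHL2a gave 0.42 (adjusted p = 0.204) and 0.11 (adjusted p = 0.776).

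The counts of BDNF are uncertain, since the antisense gene BDNF-AS covers 43339 bases of its span (64.5%) on the opposite strand, and the sources do not state that the counting used strand. BDNF-AS had from 208% to 1100% as many counts as BDNF in a library. Where BDNF was past both thresholds, the log2FC of BDNF-AS was 0.03 (standard error 0.152) in siGRHL2a against siTP63b and -0.73 (standard error 0.151) in siTP63b against siNC1. Elsewhere within the sets it was 0.17 in siKLF5b against siNC1, 0.23 in siSOX2b against siTP63b and -0.21 in siGRHL2a against siSOX2b, the first and last near the values of BDNF. ENSG00000255496, a non-coding gene on the same strand as BDNF, overlaps 38.3% of its span and had 15.2% as many counts over all libraries. Its summed counts were 4 in siNC1, 6 in siKLF5b, 35 in siTP63b, 20 in siSOX2b and 9 in siGRHL2a. Those of BDNF were 59, 66, 156, 107 and 98 in the same order. Both were thus highest in siTP63b, and the part of ENSG00000255496 in the differences of BDNF was not tested.

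NGFR (ENSG00000064300.9), on the plus strand of chromosome 17 from 49495293 to 49515008, differed most between knockdowns of the same set. It had 25.3, 27.3 and 29 CPM in siTP63b, 87.9, 94.6 and 88.5 CPM in siSOX2b, and 53, 57.5 and 59.1 CPM in siGRHL2a. In siNC1 it had 66.1, 60.3 and 54.6 CPM and in siKLF5b 37.4, 33.3 and 36.9 CPM. The order of the means was siTP63b (27.2 ± 1.87), siKLF5b (35.9 ± 2.21), siGRHL2a (56.5 ± 3.18), siNC1 (60.3 ± 5.75) and siSOX2b (90.3 ± 3.73 CPM; SD, n = 3 each), and of these neighbours only siGRHL2a and siNC1 overlapped. The summed CPM of the 7 squamous markers, most of it KRT5, was also lowest in the groups with the least NGFR. This sum ranged over 6597 to 7604 CPM for siTP63b and 6230 to 7278 CPM for siKLF5b. For siNC1 it ranged over 10178 to 11676 CPM, for siSOX2b over 9398 to 10336 CPM and for siGRHL2a over 11815 to 12188 CPM. Taken singly, KRT5, KRT17 and TP63, itself the target of siTP63b, had their lowest means in siTP63b and siKLF5b. KRT6A, DSG3, EPCAM and CDH1 did not. Mean KRT6A, for example, was higher in siTP63b than in siNC1 (129 against 74.5 CPM). Mean DSG3 was higher in siKLF5b than in siNC1 (134 against 116 CPM). The part of these markers in the level of NGFR was not tested.

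Within the set of 9, NGFR was 3.33-fold higher in siSOX2b than in siTP63b (log2FC 1.73, standard error 0.07, adjusted p = 2.2e-18 in edgeR), and only 122 of the 25108 genes had a higher log2FC. It was past both thresholds there, as were 2.82% of all genes in this direction. siGRHL2a was also above siTP63b (log2FC 1.06, standard error 0.0701, adjusted p = 3.3e-13), with 3.21% of all genes past both thresholds in this direction. It was below siSOX2b (log2FC -0.68, standard error 0.0661, adjusted p = 3.1e-09). NGFR was lower in siKLF5b than in siNC1 (log2FC -0.75, standard error 0.0717, adjusted p = 1.6e-09), just past the size threshold together with 1.37% of all genes. Without replicate 1 of siNC1 the log2FC was -0.68, and without replicate 2 of siKLF5b it was -0.70, both short of that size with adjusted p still under 0.05. It was short of that size as well with upper-quartile factors (-0.73), with the counts of the 9 other libraries halved (-0.74) and in a fit of only the 6 libraries compared (-0.74). Across the sets, its log2FC against siNC1 was -1.15 in siTP63b (standard error 0.0713, adjusted p = 8.9e-15), 0.58 in siSOX2b (standard error 0.0672, adjusted p = 8.5e-09) and -0.094 in siGRHL2a (standard error 0.0677, adjusted p = 0.249). Without replicate 3 of siNC1 the last was -0.18, with an adjusted p of 0.0462. The direction thus differed between knockdowns of 1 set, and the libraries of the 2 sets overlapped, unlike those of NTRK2 and NTS. A part of the column set in each difference from siNC1 still cannot be told apart.

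NGFR-AS1, a non-coding gene on the opposite strand, overlaps 9352 bases of NGFR (47.4% of its span), and its counts were 95% to 99.4% of those of NGFR in every library. Its log2FCs were close to those of NGFR as well, with 1.76 in siSOX2b against siTP63b and -0.75 in siKLF5b against siNC1. Without strand, reads of NGFR and NGFR-AS1 cannot be told apart, and the values of NGFR hold for the 2 genes together.

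**Figure D2:**
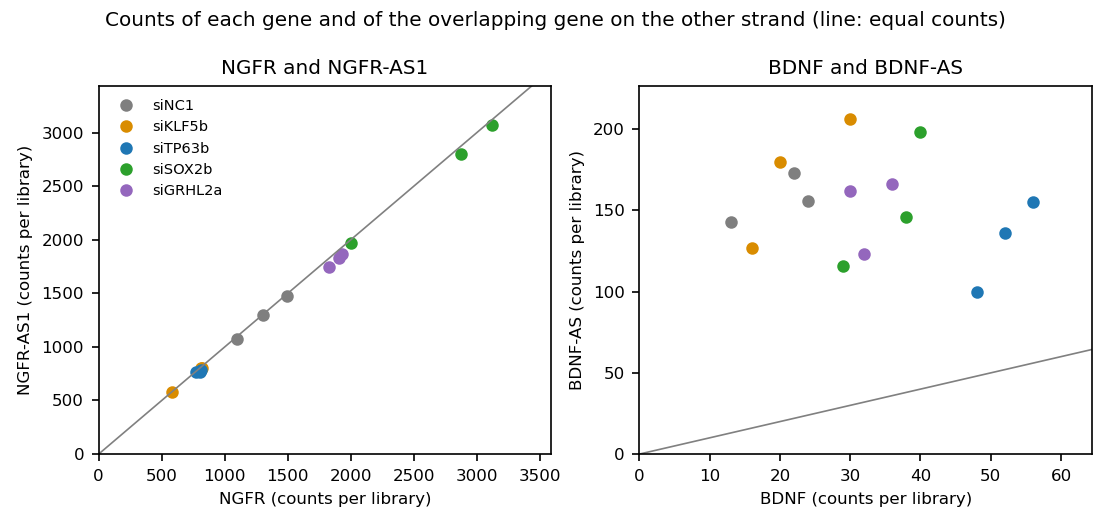
Counts of NGFR (left) and BDNF (right) in each library on the horizontal axis against the counts of the overlapping antisense gene on the vertical axis; points are coloured by group and the line marks equal counts. NGFR and NGFR-AS1 lie along the line, at 95% to 99.4%, whereas BDNF-AS exceeds BDNF in every library.

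NTSR1 (ENSG00000101188.5), the neurotensin receptor gene on the plus strand of chromosome 20 from 62708836 to 62762771, was sparsely counted. A library held between 4 and 29 of its counts, or 0.254 to 0.988 CPM. All neighbouring groups in the order of the means overlapped, from 0.538 ± 0.299 CPM in siTP63b to 0.773 ± 0.206 CPM in siNC1 (SD, n = 3 each). No difference was detectable at this depth. The log2FC was -0.28 in siKLF5b against siNC1 (standard error 0.454, adjusted p = 0.725), and among the other knockdowns it lay between 0.14 and 0.28 with standard errors of 0.423 to 0.439. Against siNC1, siTP63b gave -0.50 (standard error 0.442), siSOX2b -0.36 (0.439) and siGRHL2a -0.22 (0.427). ENSG00000223669, which overlaps NTSR1 on the opposite strand, had 14.9% as many counts.

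SORT1 (ENSG00000134243.12), the sortilin gene on the minus strand of chromosome 1 from 109309568 to 109397918, varied within a narrow range. It had 49.2, 48.8 and 52.5 CPM in siNC1 and 37.1, 39.3 and 37.8 CPM in siKLF5b, which did not overlap. In the set of 9 it had 51.4, 49.5 and 57.1 CPM in siTP63b, 52.6, 44.7 and 46 CPM in siSOX2b, and 43.2, 38.3 and 42.8 CPM in siGRHL2a. SORT1 was lower in siKLF5b than in siNC1 (log2FC -0.40, standard error 0.072, adjusted p = 8.4e-05 in edgeR) and lower in siGRHL2a than in siTP63b (log2FC -0.34, standard error 0.0684, adjusted p = 0.000224). It was also lower in siGRHL2a than in siSOX2b (log2FC -0.21, standard error 0.0687, adjusted p = 0.0268), a difference lost without replicate 1 of siSOX2b (-0.14, adjusted p = 0.176) or replicate 2 of siGRHL2a (-0.15, adjusted p = 0.154). siSOX2b against siTP63b gave -0.14 (standard error 0.0684, adjusted p = 0.123), and -0.21 without replicate 1 of siSOX2b (adjusted p = 0.028). Across the sets, siGRHL2a was below siNC1 (log2FC -0.28, standard error 0.0696, adjusted p = 0.00115), while siTP63b and siSOX2b gave 0.068 (adjusted p = 0.428) and -0.071 (adjusted p = 0.404). None of the SORT1 differences reached a log2FC of 0.75.

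**Figure D3:**
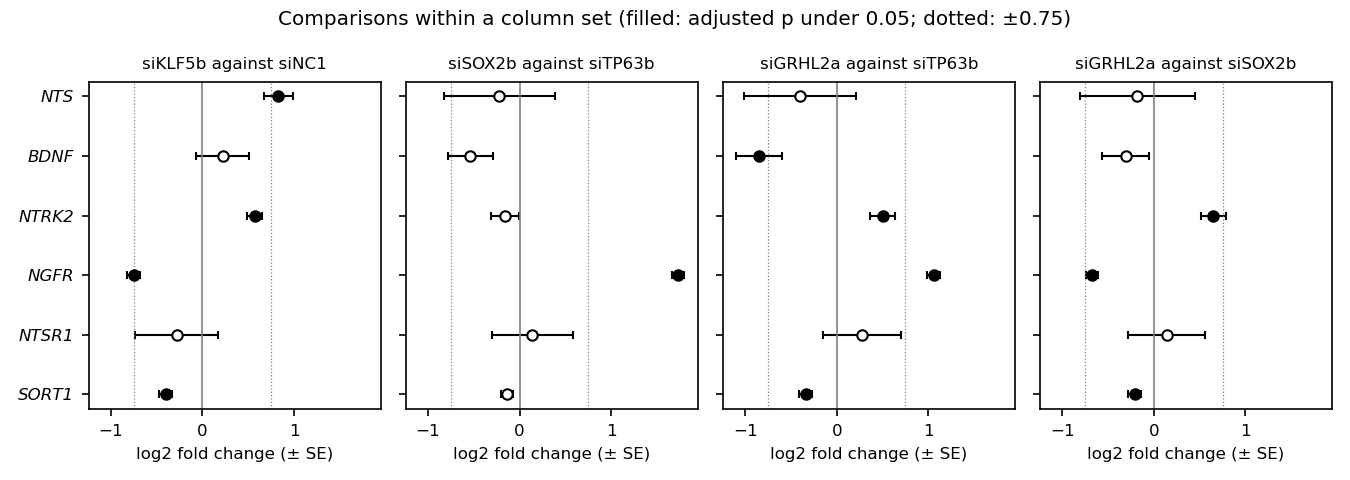
Log2FC of the 6 genes (points) with the standard error (bars) in the 4 comparisons within a column set; filled points have an adjusted p under 0.05 in edgeR, and the dotted lines mark ±0.75. NGFR reaches 1.73 in siSOX2b against siTP63b, NTRK2 stays between -0.16 and 0.65, and the bars of NTS are wide among the knockdowns of the set of 9, where it had 0 to 8 counts in a library.

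Of 72 further genes of neurotrophin and neurotensin signalling, 61 passed the filter. The receptors NTRK3 and NTSR2 did not, with group means of at most 0.361 CPM. In siKLF5b against siNC1, 2 of the 61 genes were lower past both thresholds and none was higher (3.28% and 0%, beside 1.37% and 1.89% of all genes), and the list's median log2FC was -0.071 against -0.0097 over all genes tested. The 2 lower genes, DUSP4 and DUSP6, encode MAP kinase phosphatases and are 2 of the 9 tested genes listed as responding to this signalling. The other response genes were not called, with log2FCs from -0.43 to 0.25 and adjusted p of 0.0617 or more in edgeR. DUSP4 fell from 16.1 to 7.26 CPM (log2FC -1.14, adjusted p = 2.9e-10) and DUSP6 from 29.8 to 16.6 CPM (log2FC -0.84, adjusted p = 4.2e-10).

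In siSOX2b against siTP63b, 2 genes were lower and 4 higher (3.28% and 6.56%, beside 3.88% and 2.82% of all genes). DUSP6 was at 63.4 CPM in siSOX2b and 27.3 CPM in siTP63b (log2FC 1.22, adjusted p = 2.3e-15). NTF4, a second TrkB ligand, was at 3.91 and 2.09 CPM (log2FC 0.91, adjusted p = 0.000493), and the immediate early gene EGR1 at 1.61 and 0.826 CPM (log2FC 0.98, adjusted p = 0.0103). The fourth higher gene, the adaptor SHC2, was named after its values were seen. SHC2 was sparsely counted, at 0.867 and 0.392 CPM, and overlapped between the groups (log2FC 1.18, adjusted p = 0.0291). The lower genes were PRKD1, a kinase downstream of Gq receptors (log2FC -0.81, adjusted p = 0.00104), and MMP7, a protease that cleaves neurotrophin precursors (log2FC -1.04, adjusted p = 0.0052). MMP7 too was sparsely counted, at 0.821 CPM in siSOX2b and 1.73 CPM in siTP63b. With at least 10 counts asked of every library, 4 genes were called here rather than 6.

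In siGRHL2a against siTP63b, 1 gene was lower and 5 were higher (1.64% and 8.2%, beside 2.18% and 3.21% of all genes). SORCS2, a receptor of the sortilin family, was at 43.4 CPM in siGRHL2a and 20.2 CPM in siTP63b (log2FC 1.11, adjusted p = 8.5e-12). PCSK1, a convertase of peptide precursors, had a log2FC of 1.09 (adjusted p = 1.5e-09) and NTF4 one of 0.93 (adjusted p = 0.000401). SHC2 (log2FC 1.68, adjusted p = 0.00165 in edgeR) and EGR1 (log2FC 0.81, adjusted p = 0.0393) were the other 2, named after their values were seen. They were at 1.26 and 1.44 CPM in siGRHL2a and 0.392 and 0.826 CPM in siTP63b. The libraries of the 2 groups overlapped for EGR1. The feedback inhibitor SPRY2 was lower (log2FC -0.84, adjusted p = 1.7e-05). In siGRHL2a against siSOX2b, 2 genes were lower and 1 was higher (3.28% and 1.64%, beside 1.05% and 2.27% of all genes). SPRY4, a paralogue of SPRY2, had a log2FC of -1.33 (adjusted p = 3.6e-09), and PLAT, which encodes the plasminogen activator tPA, one of -0.87 (adjusted p = 2.1e-11). MMP7 had one of 0.94 (adjusted p = 0.0149), at only 1.61 CPM in siGRHL2a and 0.821 CPM in siSOX2b. Overlapping genes make several of these uncertain, since they had 204% as many counts as NTF4, 736% as PCSK1, 268% as SPRY4, 23.1% as DUSP6 and 16% as SORCS2.

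Against siNC1, where set and knockdown cannot be told apart, 5 genes were lower and 9 higher in siTP63b, beside 9.24% and 11.4% of all genes. The counts were also 5 and 9 in siSOX2b (beside 10.1% and 11.6%), and 4 and 9 in siGRHL2a (beside 7.99% and 11.7%). These 3 comparisons share the siNC1 libraries. Of the 61 genes, 39 overlapped between the sets, 9 were lower in all 9 libraries than in the other 6 (14.8%, beside 14.2% of all genes) and 13 were higher (21.3%, beside 14.5%). GNA11, a Gq family subunit through which NTSR1 signals, was at 8.65 CPM in siNC1 and 30.4, 30.8 and 32.3 CPM in siTP63b, siSOX2b and siGRHL2a. CPE, a carboxypeptidase of peptide precursors, was at 12.4 CPM in siNC1 and 5.93, 5.94 and 6.55 CPM in these groups, and the adaptor GAB1 at 32.4 against 17.8, 17.4 and 18.3 CPM. Both GAB1 and CPE were below in all 9 libraries, and GNA11 was above. DUSP4, which was lower in siKLF5b, was higher in siTP63b (log2FC 1.59), siSOX2b (1.36) and siGRHL2a (0.96), and follows the column set, with 27.9 to 50.9 CPM in the 9 libraries and 6.87 to 17.3 CPM in the 6. MME, a peptidase that degrades neurotensin, was past both thresholds in siSOX2b (log2FC -1.01), with -0.53 in siTP63b and -0.32 in siGRHL2a, and was below in all 9 libraries. An overlapping gene had 48.2% as many counts as MME. IRAK1, a kinase that p75 recruits, was past both thresholds in siTP63b (log2FC 0.91), with 0.68 in siSOX2b and 0.62 in siGRHL2a, and was above in all 9 libraries. SORCS2, lower in siTP63b (log2FC -0.79), and RAPGEF1 and PLAT, higher (0.88) and lower (-0.99) in siGRHL2a, overlapped between the sets.

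**Figure D4:**
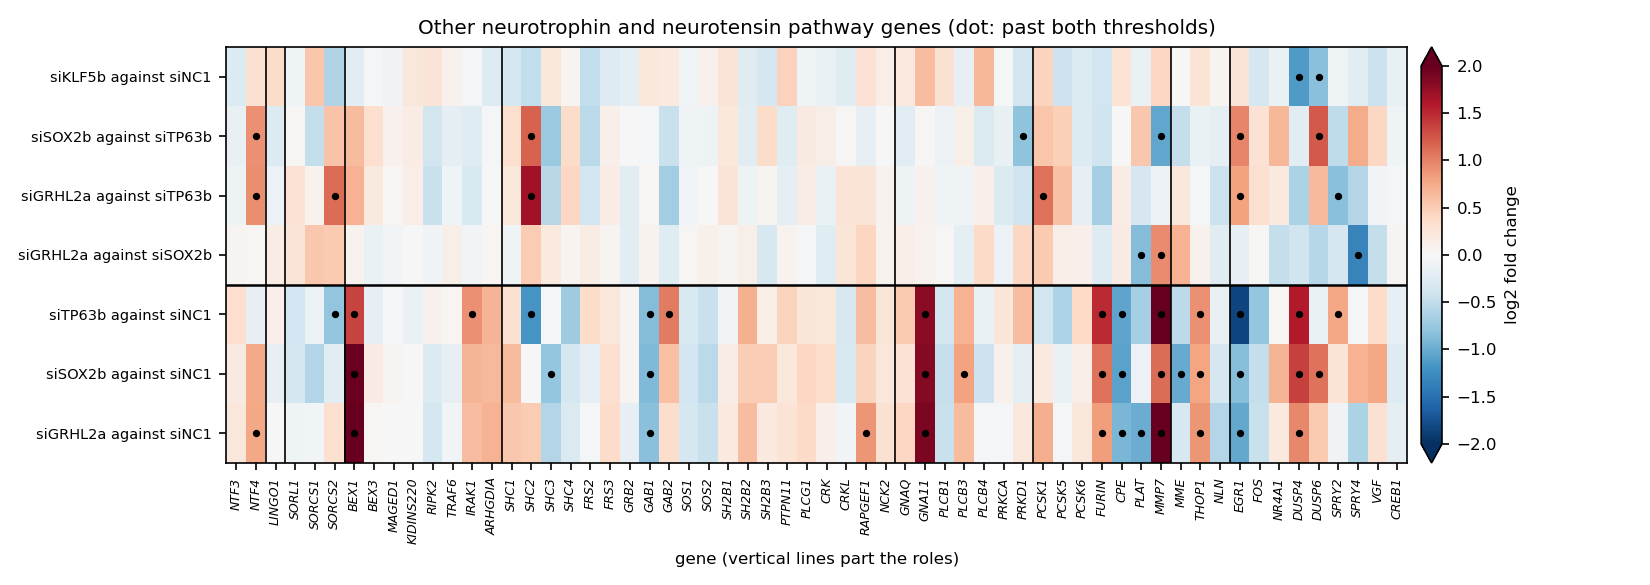
Log2FC (colour) of 60 of the 61 other pathway genes (columns, grouped by role) in the 7 comparisons (rows); a dot marks an adjusted p under 0.05 with a log2FC beyond ±0.75. Above the horizontal line, within the sets, 2 to 6 genes carry a dot in a comparison, and below it, across the sets, 12 to 14 do.

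Over the 15 libraries, the protein-coding genes whose log2 CPM was most like that of NTRK2 were DNAH11 (Pearson r = 0.9956), SLC23A1 (0.9937), PIN4 (0.9936), RPS23 (0.9931) and RPS4X (0.9931), out of 12062 ranked. For NTS they were WWP1 (r = 0.9899), ASPM (0.9897), ATRX (0.9896), GAB1 (0.9891) and RB1CC1 (0.9880). NTRK2 and NTS had an r of 0.9859 with each other, and 30 genes were more like NTRK2 than NTS was. The libraries fall into the 2 column sets and a correlation over them mainly reads that split, so no p is given. These 5 genes most like NTRK2 moved far less between the sets, as DNAH11 was at 104 CPM in siNC1 and 56.6 to 62.8 CPM in the 3 groups of the set of 9, and RPS4X at 1968 CPM and 836 to 964 CPM. The span of PIN4 contains RPS4X, and their counts are not independent.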

How the data were processed

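Poly(A)-selected RNA of 15 HCC95 libraries was sequenced as paired reads. Per the labels and the study's methods, the authors aligned the reads to hg38 with HISAT2 (v2.2.1) and counted uniquely aligned reads at gene regions with featureCounts (v2.0.1). The deposited table holds raw counts per gene and a length that equals the whole gene span for all 61544 genes, so introns may be counted. Use of strand, and whether reads or fragments were counted, are not given in the sources used here. Libraries were grouped by their titles.

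Counts were tested with edgeR (v4.0.16) in R (v4.3.3), using TMM factors, its filter on low counts (25108 genes kept) and the quasi-likelihood test, in 1 fit of 5 group means over all 15 libraries with Benjamini-Hochberg adjustment. A gene counted as differentially expressed at an adjusted p under 0.05 and an absolute log2FC above 0.75, and a member's own difference at an adjusted p under 0.05. CPM used the TMM-scaled library size. The test was checked on simulated counts. DESeq2 (v1.42.0), other scalings, filters and fits, halved counts and each library left out were alternatives. Same-numbered libraries did not deviate together (r from -0.0451 to 0.0494 in the 7 comparisons), so replicate numbers were not used as pairs.

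Members and gene lists were chosen with earlier results of these data known. Besides the 6 members, the text names genes overlapping a member, the 3 called pathway genes with the smallest adjusted p in each direction of a comparison, the 5 protein-coding genes (averaging at least 100 counts) most like NTRK2 and NTS (Pearson r of log2 CPM, prior count 2), and the targeted genes. Some of the listed genes are not reported here singly, though they stay in the counts.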

Additional observations from a re-analysis of the deposited data

How the results depend on the processing

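Of 571 alternative log2FCs of the 6 genes, 554 kept their direction and their side of an adjusted p of 0.05. The other 17 all came from leaving out 1 library, and the cause was not tested beyond the fewer samples. The range over the left-out libraries was -0.50 to 0.021 for NTSR1 in siKLF5b against siNC1. In siSOX2b against siTP63b it was -1.09 to 0.18 for NTS, -0.42 to -0.034 for NTRK2, -0.10 to 0.71 for NTSR1 and -0.21 to -0.076 for SORT1. In siGRHL2a against siTP63b it was -1.32 to 0.16 for NTS and 0.29 to 0.60 for NTRK2. In siGRHL2a against siSOX2b it was -1.11 to 0.68 for NTS, -0.093 to 0.31 for NTSR1 and -0.26 to -0.14 for SORT1. In siGRHL2a against siNC1 it was -0.043 to 0.22 for BDNF and -0.18 to -0.042 for NGFR. The number of pathway genes called stayed within 1.5 times its value in 98 of 112 alternatives. With no threshold on log2FC it was 25, 37, 32 and 19 of 61 in the comparisons within a set (siKLF5b against siNC1, siSOX2b and siGRHL2a against siTP63b, siGRHL2a against siSOX2b), beside 23.2%, 31.8%, 27.1% and 24.5% of all genes, and 43, 40 and 38 for siTP63b, siSOX2b and siGRHL2a against siNC1, beside 54.1%, 55.4% and 54%. With no such threshold the share of the list lay above that of all genes in each comparison. The part of the depth of the listed genes in this was not tested. With an absolute log2FC above 1 the number of pathway genes called was 1, 3, 3 and 1, beside 1.47%, 4%, 3.29% and 1.93%, and 9, 9 and 4, beside 13.6%, 14.3% and 12.9%. With a replicate block, the log2FC of NGFR in siSOX2b against siTP63b was 1.73 and that of NTS in siKLF5b against siNC1 0.83, and the block changed no call of a member and no count of pathway genes. In siGRHL2a against siSOX2b 3 of 3 libraries correlated best with their own number, and in none of the other comparisons did all 3. The filter of 10 counts in every library left no value for NTS and NTSR1. Depth limits NTS in the set of 9 libraries, NTSR1 and BDNF.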
